A study of Mus musculus with 40 samples.

Results

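The GIMAP genes (GTPases of immunity-associated proteins) were followed through 8 groups of mouse T cells, chosen by gene symbol: all 8 members annotated on chromosome 6 were present among the 21950 genes of the table, and all 8 passed the filter on low values. The groups were resting and activated conventional T cells (Tconvs), resting and activated thymus-derived regulatory T cells (tTregs, called nTregs in the labels), and regulatory T cells induced in culture (iTregs) that were resting, restimulated, restimulated with an ORAI calcium channel inhibitor (the label gives no compound name), or restimulated with cyclosporin A (CsA), a calcineurin inhibitor. Each group had 3 RNA-seq libraries. Tconvs and tTregs came from spleens of Foxp3-GFP reporter mice on the C57BL/6 background aged 2 to 4 months, tTregs being sorted as CD4+ Foxp3-GFP+ cells. iTregs came from naive CD4+ Foxp3-GFP- CD62L high CD44 low cells of reporter mice aged 6 weeks, induced for 4 days on anti-CD3 and anti-CD28 with 2 ng/ml TGF-β and IL-2, sorted on the reporter, rested for 1 day in IL-2 and, except in the resting group, restimulated through CD3 and CD28. The gate of the Tconvs and the length of the stimulations are not given in the sources used here, and no source says whether replicates came from separate mice or cultures, so p-values measure the spread between these libraries, which may be technical. The iTregs differed from the sorted Tconvs and tTregs in donor age and culture as well as in cell type, and these cannot be told apart.

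Libraries held 5256800 to 15685234 reads on genes, the tTreg groups being the shallowest with medians of 7582032 (resting) and 7131717 (activated). The smallest read number behind any value of a member was 343 (Gimap8 in activated tTreg replicate 3), which by counting alone gives an error of 5.40%. Foxp3 was at 9.7 to 11.3 normalized counts (gene counts divided by a size factor per library) in resting Tconvs. It was at 7218 to 7767 in resting tTregs and 1178 to 1338 in resting iTregs, so for Foxp3 these labels held. Il2ra, Ctla4 and Lrrc32 were also higher in both resting Treg types than in resting Tconvs. Ikzf2 was not, with means of 195 in resting Tconvs, 9403 in resting tTregs and 167 in resting iTregs. Il2ra was also high in activated Tconvs (mean 4351). Foxp3 in these groups does not check the labels of stimulation or inhibitors. The summed markers of B cells, CD8 T cells, myeloid cells, NK cells and red cells reached at most 143, 236, 43.1, 30.9 and 26.2 normalized counts in any library, against 25042 to 37735 for 6 T cell markers. The library of resting tTreg replicate 1 stood apart: of 7964 genes with a mean of at least 100 normalized counts in that group, 80 were at least 4-fold below both other replicates, against at most 2 in any other library. In activated tTreg replicate 1, 26 genes were at least 4-fold above both other replicates. Gimap1 was among the 80, and results that rest on this library are given with and without it.

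GIMAP proteins are small GTP-binding proteins of the septin-like AIG1 family, found mostly in lymphocytes and often anchored to intracellular membranes. They are known for keeping resting lymphocytes alive: mice that lack Gimap5 lose peripheral T cells, and loss of Gimap1 depletes mature T and B cells. Their genes lie next to each other and encode related GTP-binding domains, with Gimap8 carrying several such domains in one protein. In bulk libraries, fewer cells that express a gene and less RNA per cell cannot be told apart.

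The 8 genes occupied 123.6 kb of chromosome 6, from 48647234 to 48770851 (GRCm38, GENCODE M21, an older release than the study used), in the order Gimap8, Gimap9, Gimap4, Gimap6, Gimap7, Gimap1, Gimap5 and Gimap3. Of these, 6 were on the plus strand, and Gimap6 (48701582 to 48708225) and Gimap3 (48764464 to 48770851) on the minus strand. The read-through gene Gm28053 shared 81 exonic bases with Gimap7, 198 with Gimap1 and 153 with Gimap5, and the antisense gene Gimap1os covered 36.0% of the exonic bases of Gimap1. Reads were not stranded, so reads of Gimap1 and Gimap1os cannot be told apart. Gimap3 and Gimap5, close paralogs, had 190 identical 50-base stretches in their transcripts, 7.52% of those of Gimap3 and 9.98% of those of Gimap5, so the split of reads between this pair is uncertain.

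The 250 bases before the RefSeq start (GRCm38.p6) are shown for the 2 members with the largest falls on Tconv activation, Gimap4 and Gimap9, and for Gimap7 and Gimap5, which were on the higher side in activated Tconvs and on the lower side in activated tTregs. Capitals mark the letters of short motifs searched on both strands: TGTGGT (RUNX), GGAAGT (ETS), CCACCC (KLF), GTAAACA (FOXO), CTTTGA (TCF/LEF), TGANTCA (AP-1) and TGGAAA (NFAT). The 4 windows are chr6:48684328-48684577, chr6:48675885-48676134, chr6:48718371-48718620 and chr6:48745947-48746196, in the order printed, and all are on the plus strand.
Gimap4: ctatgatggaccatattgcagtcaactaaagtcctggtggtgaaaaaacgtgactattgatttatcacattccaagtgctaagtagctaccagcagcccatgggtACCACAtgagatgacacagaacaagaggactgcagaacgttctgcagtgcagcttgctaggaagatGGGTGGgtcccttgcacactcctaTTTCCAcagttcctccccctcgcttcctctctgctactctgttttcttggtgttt
Gimap9: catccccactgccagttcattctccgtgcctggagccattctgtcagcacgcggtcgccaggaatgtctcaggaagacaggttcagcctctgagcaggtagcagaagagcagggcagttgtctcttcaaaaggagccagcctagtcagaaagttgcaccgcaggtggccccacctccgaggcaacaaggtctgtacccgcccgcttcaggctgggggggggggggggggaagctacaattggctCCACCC
Gimap7: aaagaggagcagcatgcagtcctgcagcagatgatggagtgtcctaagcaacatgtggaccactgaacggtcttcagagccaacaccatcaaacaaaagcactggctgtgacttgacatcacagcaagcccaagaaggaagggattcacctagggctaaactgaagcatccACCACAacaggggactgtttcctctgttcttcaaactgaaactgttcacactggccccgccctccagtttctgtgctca
Gimap5: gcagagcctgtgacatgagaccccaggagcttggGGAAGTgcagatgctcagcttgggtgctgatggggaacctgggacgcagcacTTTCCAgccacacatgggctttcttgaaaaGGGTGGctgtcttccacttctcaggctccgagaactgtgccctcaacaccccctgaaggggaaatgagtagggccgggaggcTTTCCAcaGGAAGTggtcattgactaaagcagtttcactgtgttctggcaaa

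The Gimap4 window held RUNX, KLF and NFAT letters, starting 145, 79 and 55 bases before the start, and the Gimap7 window held RUNX letters alone, 79 bases before it. The Gimap9 window held KLF letters alone, and the Gimap5 window held ETS letters at 216 and 44 bases, NFAT letters at 164 and 52 bases and KLF letters at 134 bases before its start. Matches did not overlap each other. Over the 9 windows of the 8 members (Gimap8 has 2 starts in RefSeq), RUNX letters were in 3, ETS in 2, KLF in 5, FOXO in 1 and NFAT in 5, while TCF/LEF and AP-1 letters and the longer ETS form CCGGAAGT were in 0. Among 32536 distinct mouse promoter windows of the same length, the shares were 14.0% for RUNX, 19.8% for ETS, 28.1% for KLF, 3.17% for FOXO, 18.6% for NFAT, 13.9% for TCF/LEF, 6.73% for AP-1 and 2.90% for the longer ETS form. RUNX letters were in the windows of both Gimap4 and Gimap7, and no motif searched was in all the members. Whether any of these letters is bound or acts was not tested.

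In resting Tconvs the GIMAP genes together made up 0.734% ± 0.0157 of all normalized counts (SD, n = 3). The share was 0.372% ± 0.0272 in activated Tconvs, 0.545% ± 0.0315 in resting tTregs and 0.329% ± 0.0174 in activated tTregs. In the 4 iTreg groups it was between 0.180% and 0.197%. The libraries of resting Tconvs, at 0.719% to 0.751%, did not overlap with those of any other group. Per kb of the longest coding transcript, Gimap4 was the highest member in resting Tconvs with 11255 normalized counts per kb, followed by Gimap3 with 10164. Gimap8 was the lowest with 445, and Gimap5 was next lowest with 486. On that scale Gimap4 stood above 99.2% of the 11625 genes compared and Gimap8 above 86.1%. In resting tTregs Gimap3 took the first place with 8689 per kb, and Gimap9 was in place 6 of 8 after place 4 in resting Tconvs.

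**Figure D1:**
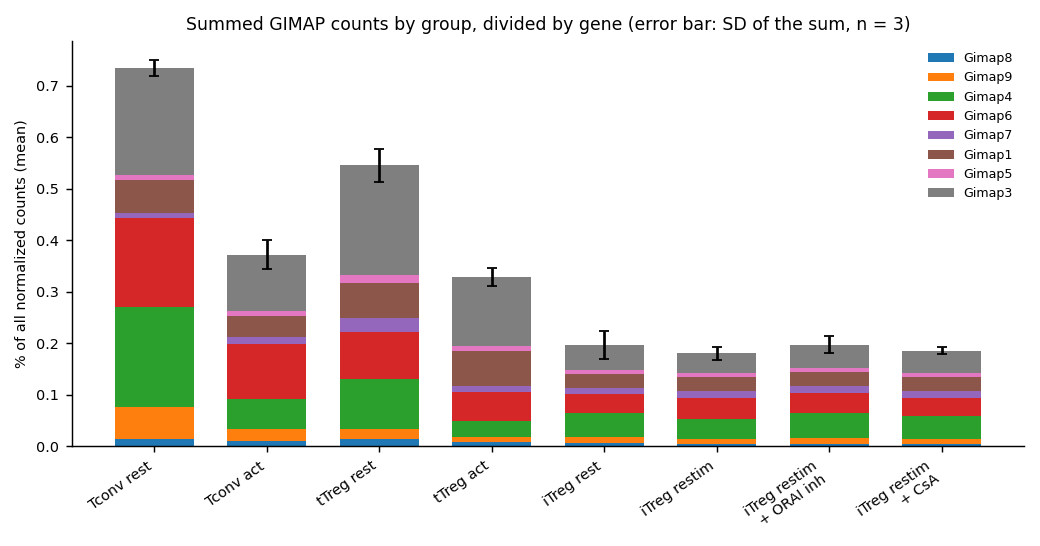
Stacked bars give the mean share of all normalized counts (%) taken by each GIMAP gene in each of the 8 groups, with an error bar of 1 SD of the sum over 3 libraries. The sum was 0.734% in resting Tconvs, 0.545% in resting tTregs and 0.197% in resting iTregs.

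**Figure D2:**
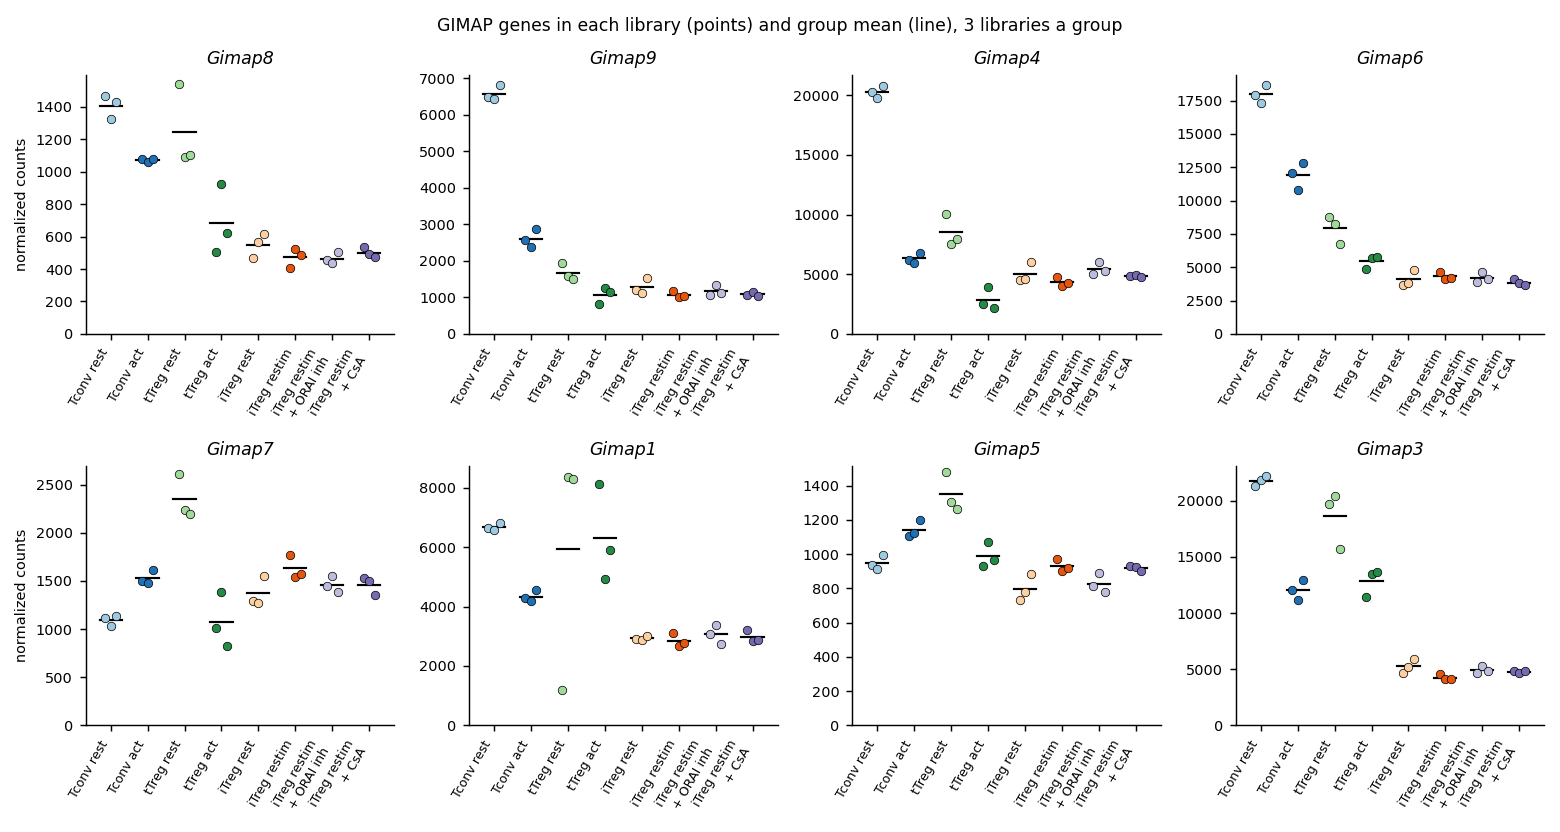
Points are normalized counts of each GIMAP gene (linear axis from 0) in the 24 libraries, 3 per group, and lines are group means. Panels follow the order of the genes on the chromosome. Gimap1 in resting tTreg replicate 1 (1187 normalized counts) lies far below its group, and Gimap7 and Gimap5 are highest in resting tTregs.

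How the GIMAP genes responded to T cell activation was first asked in Tconvs. Gimap4, Gimap9, Gimap3 and Gimap6 fell and no member rose by the thresholds used (limma, Benjamini-Hochberg adjusted p under 0.05 with a log2 fold change beyond 0.5 in either direction). That is 4 of 8 members lower, where 25.7% of all 11495 genes tested were lower and 24.5% were higher. The median log2 fold change was -0.61 over the members and -0.04 over all genes tested.

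Gimap4, a GTPase linked to T cell apoptosis and cytokine secretion, was at 20302, 19804 and 20804 normalized counts in resting Tconvs and at 6235, 5951 and 6804 in activated Tconvs. All 3 activated libraries lay far below all 3 resting ones. The fall was 3.21-fold (log2 -1.68 ± 0.18 SE, adjusted p = 9.66e-07, limma). Gimap9 was at 6479, 6427 and 6800 before and at 2572, 2387 and 2862 after activation, again without overlap, a 2.53-fold fall (log2 -1.34 ± 0.15 SE, adjusted p = 2.21e-06, limma). Gimap3, which is anchored in the outer mitochondrial membrane and has been tied to interactions with BCL2 proteins, went from 21330, 21863 and 22211 to 12076, 11193 and 12941. The fall of Gimap3 was 1.81-fold (log2 -0.86 ± 0.11 SE, adjusted p = 1.22e-05, limma). Gimap6, which binds the ATG8 protein GABARAPL2 and acts in autophagy, fell 1.52-fold, from 17941, 17316 and 18698 to 12056, 10777 and 12822 (log2 -0.60 ± 0.12 SE, adjusted p = 0.000485, limma).

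Gimap7 and Gimap5 went the other way without passing the thresholds. Gimap7, known to stimulate GTP hydrolysis by partner GIMAP proteins, was at 1115, 1031 and 1136 normalized counts in resting and 1503, 1483 and 1612 in activated Tconvs. Its libraries did not overlap, and its log2 fold change of 0.49 ± 0.14 (SE) had an adjusted p of 0.00897 (limma) but lay just under 0.5. With reads recovered from the table, Gimap7 passed both thresholds in edgeR (log2 0.51, adjusted p = 0.00721) and DESeq2 (log2 0.52, adjusted p = 0.00125). Gimap5, a lysosomal member needed for T cell survival, was at 939, 914 and 993 before and 1103, 1124 and 1199 after activation (log2 0.27 ± 0.09 SE, adjusted p = 0.0186, limma). Both genes were therefore higher in each activated library than in any resting library, by amounts smaller than the falls of Gimap4 and Gimap9.

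Gimap8 and Gimap1 did not pass. Gimap8 was at 1464, 1321 and 1430 in resting and 1080, 1058 and 1080 in activated Tconvs (log2 -0.39 ± 0.18 SE, adjusted p = 0.0775, limma). Gimap1, which is needed by mature lymphocytes, was at 6630, 6594 and 6811 and then at 4280, 4170 and 4555, with a log2 fold change of -0.62 ± 0.51 (SE, adjusted p = 0.304, limma). The groups did not overlap in either gene. The wide error of Gimap1 came with the shared estimate of the spread, which took in resting tTreg replicate 1: without that library the value was the same, -0.62 ± 0.13 (SE), with an adjusted p of 0.000572 (limma), and 5 of 8 members were lower, where 26.0% of all genes were.

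In tTregs activation lowered 6 of the 8 members, Gimap4, Gimap7, Gimap8, Gimap9, Gimap6 and Gimap3, and raised none by the same thresholds, where 10.0% of all genes were lower and 11.9% were higher. The median log2 fold change was -0.59 over the members and 0.00 over all genes. Gimap4 was at 10025, 7552 and 7932 normalized counts in resting and 2548, 3908 and 2171 in activated tTregs. It fell 3.03-fold without overlap (log2 -1.60 ± 0.18 SE, adjusted p = 1.65e-05, limma). Gimap7 was at 2606, 2238 and 2196 and then at 1007, 1384 and 826, a 2.23-fold fall (log2 -1.16 ± 0.14 SE, adjusted p = 4.45e-05, limma). Its activated libraries all lay below its resting ones, the reverse of the order seen in Tconvs.

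The other falls in tTregs were smaller. Gimap8 went from 1541, 1090 and 1103 to 506, 925 and 623 normalized counts (log2 -0.89 ± 0.18 SE, adjusted p = 0.00189, limma). Gimap9 went from 1943, 1575 and 1498 to 825, 1260 and 1144 (log2 -0.65 ± 0.15 SE, adjusted p = 0.00462, limma). Gimap6 and Gimap3 fell by 0.54 and 0.53 on the log2 scale, close to the threshold. Without resting tTreg replicate 1 both missed it (-0.46 and -0.49), leaving 4 of 8 members lower where 7.60% of all genes were. Without activated tTreg replicate 1 Gimap3, Gimap6 and Gimap9 missed it (-0.45, -0.46 and -0.47), leaving 3. Over the 6 fits that left out 1 library, 2094 to 2964 of 11495 genes were called in either direction. Gimap5 was at 1478, 1303 and 1263 in resting and 928, 1070 and 968 in activated tTregs, a difference of -0.45 ± 0.09 (SE, adjusted p = 0.00177, limma) that stayed under the 0.5 threshold.

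Gimap1 depended on the library that stood apart. It was at 1187, 8379 and 8280 normalized counts in resting tTregs, replicate 1 being 7.06-fold and 6.97-fold below the other two, and at 8119, 4912 and 5893 in activated tTregs. The lowest value of Gimap1 in any of the other 23 libraries was 2672. With all libraries the log2 fold change was 0.50 ± 0.51 (SE, adjusted p = 0.473, limma), and without resting tTreg replicate 1 it was -0.43 ± 0.14 (SE, adjusted p = 0.0352, limma), so its direction turned. The read-through gene Gm28053 was at 87.1, 89.5 and 94.5 normalized counts in resting tTreg replicates 1, 2 and 3, with no gap of that size. Whether the low value is a matter of that library or of the cells was not tested.

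Whether the response to activation differed between Tconvs and tTregs was tested as an interaction. It differed for 3 of 8 members, where 34.7% of all genes differed. Gimap7 had the largest difference, 1.64 ± 0.20 on the log2 scale (SE, Tconv response minus tTreg response, adjusted p = 1.94e-05, limma), since it was 1.40-fold higher in activated than in resting Tconvs and 2.23-fold lower in activated than in resting tTregs. Gimap5 differed in the same sense by 0.71 ± 0.13 (SE, adjusted p = 0.000487, limma). Gimap9 fell more in Tconvs than in tTregs, with a difference of -0.69 ± 0.21 (SE, adjusted p = 0.0194, limma). For Gimap4 and Gimap6 the difference was -0.08 (95% interval -0.62 to 0.45) and -0.06 (-0.42 to 0.30), values whose sign turned under quantile normalization without passing the test. Without resting tTreg replicate 1 the differences were 1.57 for Gimap7, 0.65 for Gimap5 and -0.80 for Gimap9, and all 3 stayed past the thresholds. Without activated Tconv replicate 2, Gimap9 (-0.63, adjusted p = 0.0501, limma) did not. Gimap1 was not called (-1.13 ± 0.72 SE, adjusted p = 0.234, limma). Its difference ran from -1.60 to -0.19 when 1 library was left out, and it passed in none of these fits.

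**Figure D3:**
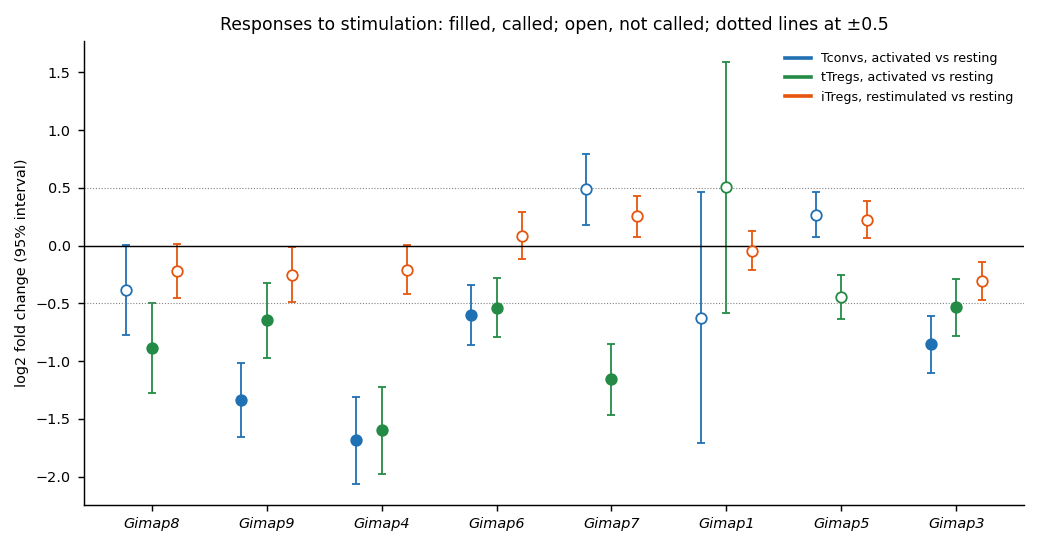
Points are log2 fold changes on stimulation for each GIMAP gene in Tconvs (blue), tTregs (green) and iTregs (orange), with 95% intervals from limma, filled where the gene passed both thresholds and open where it did not. Gimap7 was at 0.49 in Tconvs, -1.16 in tTregs and 0.25 in iTregs, and no iTreg point is filled.

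Before activation, resting tTregs and resting Tconvs already differed in 5 of 8 members, 3 lower and 2 higher in tTregs, where 38.6% of all genes differed, 18.2% lower and 20.5% higher. Gimap9 was 3.95-fold lower in resting tTregs (log2 -1.98 ± 0.15 SE, adjusted p = 4.86e-08, limma). Gimap4 was 2.41-fold lower (log2 -1.27 ± 0.18 SE, adjusted p = 2.77e-05) and Gimap6, at 8738, 8260 and 6766 normalized counts in resting tTregs, was 2.28-fold lower (log2 -1.19 ± 0.12 SE, adjusted p = 9.95e-07). No resting tTreg library reached a resting Tconv library in any of the 3 genes, and the share of all genes without overlap was not counted. Gimap7 was 2.14-fold higher in resting tTregs (log2 1.10 ± 0.14 SE, adjusted p = 1.63e-05, limma), and so the family did not move as a block. Gimap5 was 1.42-fold higher (log2 0.50 ± 0.09 SE, adjusted p = 0.000292), which is at the threshold and missed it without resting tTreg replicate 1 (log2 0.44).

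Gimap3 and Gimap8 did not pass the test between these resting groups. Gimap3 was at 19732, 20473 and 15710 in resting tTregs, a log2 difference of -0.24 ± 0.11 (SE, adjusted p = 0.100, limma) that turned to 0.54 under quantile normalization. Gimap8 differed by -0.19 (95% interval -0.58 to 0.20). Gimap1 differed by -0.62 ± 0.51 (SE) with all libraries and by 0.32 ± 0.14 (SE, adjusted p = 0.0774, limma) without resting tTreg replicate 1.

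Resting iTregs had the lower level in 6 of 8 members when set against resting Tconvs, where 30.8% of all genes were lower and 32.8% were higher. The median log2 fold change was -1.69 over the members and 0.02 over all genes. Gimap9 was at 1196, 1120 and 1532 normalized counts in resting iTregs, 5.16-fold below resting Tconvs (log2 -2.37 ± 0.15 SE, adjusted p = 2.00e-09, limma). Gimap6 was at 3666, 3784 and 4833, or 4.42-fold lower, and Gimap3 was at 4669, 5188 and 5934, or 4.16-fold lower. Gimap4 was at 4532, 4617 and 6043 and 4.04-fold lower, and Gimap8 was at 469, 566 and 615 and 2.57-fold lower. In these 5 genes the highest iTreg library was below the lowest resting Tconv library. The share of all genes without such overlap was not counted.

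Gimap1 was at 2894, 2877 and 3018 in resting iTregs, 2.28-fold below resting Tconvs, with an adjusted p of 0.0467 (limma) that rested on the shared spread and was between 0.0829 and 0.0921 when any 1 of the 6 libraries compared was left out. Without resting tTreg replicate 1 the adjusted p was 6.28e-07. Gimap5 and Gimap7 did not pass. Gimap5 was at 732, 776 and 886 (log2 -0.25 ± 0.09 SE, adjusted p = 0.0204, limma) and Gimap7 was at 1293, 1269 and 1555 (log2 0.32 ± 0.14 SE, adjusted p = 0.0576, limma). The resting iTreg libraries of Gimap7 were all above the resting Tconv libraries. The share of all genes in that order was not counted.

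Set against resting tTregs, resting iTregs were also lower in 6 members, where 31.1% of all genes were lower. Gimap3 differed most, with a 3.53-fold lower level (log2 -1.82 ± 0.11 SE, adjusted p = 2.01e-09, limma). Gimap8, Gimap6, Gimap7, Gimap5 and Gimap4 were 2.25-fold, 1.94-fold, 1.71-fold, 1.69-fold and 1.68-fold lower. Gimap9, the member with the largest fall from resting Tconvs, differed here by -0.39 ± 0.15 (SE, adjusted p = 0.0319, limma), under the 0.5 threshold. Gimap1 was not called with all libraries (log2 -0.57, adjusted p = 0.322), but without resting tTreg replicate 1 it was 2.84-fold lower in iTregs (log2 -1.51 ± 0.14 SE, adjusted p = 2.05e-07, limma), which makes 7 members lower, where 30.9% of all genes were.

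Compared with activated Tconvs, which had also been stimulated, resting iTregs were lower in 5 members, where 18.7% of all genes were lower. These were Gimap6 (2.92-fold), Gimap3 (2.30-fold), Gimap9 (2.04-fold), Gimap8 (1.96-fold) and Gimap5 (1.43-fold, log2 -0.52, at the threshold). Gimap4, the member that fell most on Tconv activation, was at levels in resting iTregs that overlapped those of activated Tconvs (log2 -0.33, 95% interval -0.71 to 0.04). Gimap7 overlapped as well (log2 -0.16, 95% interval -0.47 to 0.15). Gimap1 was lower without overlap but not called (log2 -0.56 ± 0.51 SE, adjusted p = 0.369, limma). It gained a call in 1 of 7 fits that left out 1 library, and over these fits 4 to 6 members were called. In these comparisons quantile normalization moved the median of all genes by between -0.12 and -0.14 on the log2 scale without turning the direction of any member.

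**Figure D4:**
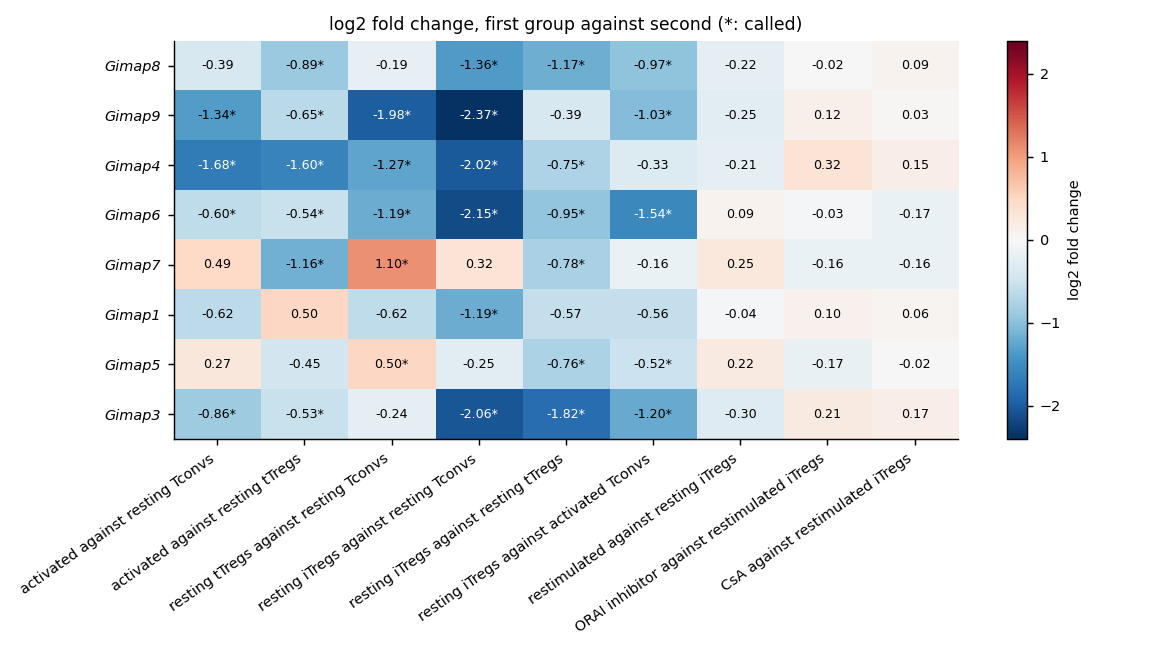
Each cell gives the log2 fold change of a GIMAP gene (rows, in chromosome order) in a comparison of groups (columns, first group against second), with blue for lower and red for higher, and a star where both thresholds were passed. Stars run down the column of resting iTregs against resting Tconvs for 6 genes, and the 3 columns of restimulation and inhibitors hold none.

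Whether restimulation moved the GIMAP genes of iTregs was asked over the 12 iTreg libraries. By limma 0 of 8 members passed both thresholds, where 12.8% of all 11105 genes tested did, and edgeR and DESeq2 on recovered reads also called 0. At an unadjusted p under 0.05 there were 4, and the share of all genes at that level was not counted. Gimap3 was at 4547, 4090 and 4104 normalized counts after restimulation, every library below the resting iTregs, a log2 difference of -0.30 ± 0.08 (SE, adjusted p = 0.00787, limma). Gimap7 at 1773, 1544 and 1576 (log2 0.25 ± 0.08 SE, adjusted p = 0.0338) and Gimap5 at 973, 900 and 918 (log2 0.22 ± 0.08 SE, adjusted p = 0.0359) were on the higher side. These 3 had an adjusted p below 0.05 and missed the 0.5 threshold. By adjusted p alone, 3264 of the 11105 genes tested passed. The 95% intervals of all 8 members lay between -0.49 and 0.43, so changes as large as the Tconv falls of Gimap4 or Gimap9 lay outside them.

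The ORAI inhibitor and CsA, which block calcium entry and the calcineurin step after it, were compared with restimulation alone. By limma, edgeR and DESeq2, 0 of 8 members were called for the ORAI inhibitor and 0 for CsA, where limma called 3.30% and 2.92% of all genes. At an unadjusted p under 0.05 there were 3 and 1, and the shares of all genes at that level were not counted. Gimap4 had the largest difference, at 5022, 6030 and 5301 normalized counts with the ORAI inhibitor against 4765, 4049 and 4258 without it (log2 0.32 ± 0.10 SE, adjusted p = 0.0609, limma), and its libraries did not overlap. With CsA it was at 4823, 4926 and 4737 (log2 0.15, 95% interval -0.06 to 0.36). Gimap3, which had been lower after restimulation, was at 4682, 5238 and 4833 with the ORAI inhibitor and 4850, 4620 and 4811 with CsA, above each restimulated library in both (log2 0.21 and 0.17, adjusted p = 0.119 and 0.216, limma).

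The inhibitors were also compared with each other and with resting iTregs. Between the 2 inhibitors 0 of 8 members were called by limma, edgeR and DESeq2, and 0 at an unadjusted p under 0.05, where limma called 0.360% of all genes, and intervals for the members lay between -0.34 and 0.38. Against resting iTregs, the same 3 tools called 0 members with the ORAI inhibitor and 0 with CsA. Of all genes, limma called 7.10% and 9.43%. At an unadjusted p under 0.05 there were 0 and 1 member, and the shares of all genes at that level were not counted. Over all 12 iTreg libraries Gimap4 ranged from 4049 to 6043 with a median of 4794, and Gimap9 from 1005 to 1532 with a median of 1118. Gimap1 ranged from 2672 to 3365, the least variable member with a coefficient of variation of 7.01%.

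The restimulation response of iTregs was then set against the activation responses of the other cells, as interactions over all 24 libraries. Against Tconvs, 4 of 8 members differed, where 44.2% of all genes did: Gimap4 by 1.48 ± 0.22 (SE, adjusted p = 7.04e-06), Gimap9 by 1.08 ± 0.20 (adjusted p = 8.49e-05), Gimap6 by 0.69 ± 0.15 (adjusted p = 0.000685) and Gimap3 by 0.55 ± 0.14 (adjusted p = 0.00212, limma). Gimap3 missed the 0.5 threshold without activated Tconv replicate 2 (0.498) or resting iTreg replicate 1 (0.468), and in edgeR (0.487). In each of the 4 the fall in Tconvs had no counterpart of that size in iTregs. Gimap1 differed by 0.58 and was not called, but gained a call in 1 of 13 fits that left out 1 library. Against tTregs, 5 of 8 differed, where 21.3% of all genes did. Gimap7 differed by 1.41 ± 0.18 (SE, adjusted p = 5.53e-06) and Gimap4 by 1.39 ± 0.22 (adjusted p = 5.98e-05, limma). Gimap5, Gimap8 and Gimap6 differed by 0.67, 0.67 and 0.63, and the call for Gimap8 (adjusted p = 0.0354) was lost in 7 of 12 fits that left out 1 library, with adjusted p between 0.0502 and 0.112 (limma). These were the fits without resting or activated tTreg replicate 1, activated tTreg replicate 3, resting iTreg replicate 1 or 2, and restimulated iTreg replicate 2 or 3. Gimap1 differed from the tTreg response by -0.55 and was not called, and its value ran from -1.02 to 0.39 with 1 library left out. For Gimap7 and Gimap5 the responses of iTregs and Tconvs differed by -0.23 (95% interval -0.61 to 0.14) and -0.04 (-0.28 to 0.19), while each differed from the tTreg response. Controls are shared between these comparisons.

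Over all 28 pairs of groups, 113 of 224 values of the members were called, 103 lower and 10 higher in the direction of the table (the later group in the order given above against the earlier), where 43.6% of all gene values were called, 20.6% lower and 23.0% higher. Of the 128 values that compare an iTreg group with a Tconv or tTreg group, 78 were lower in iTregs and 6 higher, where 27.4% and 30.6% of all were. Gimap3 was lower in iTregs in 16 of 16 such pairs, Gimap8 in 13 and Gimap6 in 12. Against activated tTregs alone the difference was smaller. There the calls of members went in both directions. Member medians were -0.31 to -0.21 on the log2 scale, against 0.02 to 0.03 over all genes tested. The pairs share libraries, so the pooled values are not independent. Of the 48 values within iTregs, 0 were called by limma, where 4.37% of all were.

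Ordered by level, resting Tconvs were the highest group for 6 members and resting tTregs for the other two, Gimap5 and Gimap7. For Gimap1 this rested on resting tTreg replicate 1: without it resting tTregs had the highest mean, 8330 ± 69.4 normalized counts (SD, n = 2), against 6678 in resting Tconvs. Neighbours in the order mostly did not differ beyond their spread. For Gimap6 the steps from resting to activated Tconvs, on to resting tTregs and on to activated tTregs each passed the test, and the steps below did not. For Gimap9 the step from resting to activated Tconvs and the step to resting tTregs passed. For Gimap3 the steps from resting to activated tTregs and from activated Tconvs down to resting iTregs passed, while resting Tconvs and resting tTregs did not differ by the thresholds. For Gimap4 the first step, from resting Tconvs to resting tTregs, and the last, from restimulated iTregs to activated tTregs, passed, so that activated tTregs, with 2876 ± 914 normalized counts (SD, n = 3), were its lowest group. For Gimap8 only the step from activated Tconvs to activated tTregs passed, and for Gimap7 only that from resting tTregs to restimulated iTregs. For Gimap5 and Gimap1 no step between neighbours passed, and for Gimap1 the shared spread took in resting tTreg replicate 1. The mean of the highest group was 7.06 times that of the lowest for Gimap4, 6.14 times for Gimap9 and 1.69 times for Gimap5.

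Correlations are a description over the 24 libraries, which fall into 8 groups and so are not independent points. Gimap3, Gimap4, Gimap6, Gimap8 and Gimap9 varied together, with Pearson r between 0.58 and 0.94 for their 10 pairs. With these 5 genes Gimap5 had r between 0.26 and 0.69 and Gimap1 between 0.22 and 0.60, ranges that overlap theirs. With the mean profile of the family, Gimap1 had r of 0.50, and 0.78 without resting tTreg replicate 1. Gimap7 had r between -0.37 and 0.60 with the other members, the highest with Gimap5. The genes outside the family most like its mean profile, among 11717 ranked, were Lrif1 (r = 0.97), Crbn (0.96), Kcna2 (0.96), Gm8369 (0.96) and Cdip1 (0.96). Crbn, the substrate receptor of an E3 ubiquitin ligase, had means of 2160 normalized counts in resting Tconvs, 1954 in resting tTregs and 699 in resting iTregs. Kcna2, a potassium channel, had 59.4 and 42.1 in the resting Tconvs and tTregs and was at 0 in every iTreg group. The genes most opposite were Yif1b (r = -0.98), Sae1, Cep89, Bex3 and Gipc1 (each -0.97). Sae1, a subunit of the SUMO-activating enzyme, had means of 1427 in resting Tconvs and 7081 in resting iTregs.

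Other genes tied to quiescence, survival and the known partners of GIMAP proteins were counted in the same fits. Of 16 genes of T cell quiescence and homing, 9 fell and 1 rose on Tconv activation (25.7% and 24.5% of all genes), and Il7r, the receptor of the survival cytokine IL-7, fell most, from 20013 to 21395 normalized counts down to 604 to 686. The median log2 fold change of this list was -0.83, against -0.61 for the GIMAP genes and -0.04 for all genes tested. On tTreg activation 10 fell and 1 rose (10.0% and 11.9% of all genes), with Slfn2 falling most among them (log2 -1.21 ± 0.13 SE, adjusted p = 1.46e-05, limma). In resting iTregs against resting Tconvs 15 were lower and 0 higher (30.8% and 32.8% of all genes), with a median of -2.16, and Tcf7, a transcription factor of naive T cells, had the largest fold difference, with 667, 747 and 712 against 15701, 16434 and 16500.

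Of 10 genes of the BCL2 family, with which Gimap3 and Gimap5 have been tied, 6 rose and 1 fell on Tconv activation (24.5% and 25.7% of all genes). Bcl2l1, which encodes BCL-XL, went from 209, 184 and 196 to 1657, 1665 and 1690 normalized counts, so this survival gene rose while Gimap3 fell. On tTreg activation 3 rose and 2 fell (11.9% and 10.0% of all genes), Bcl2l11, encoding the pro-apoptotic BIM, with the largest change (log2 -0.78 ± 0.11 SE, adjusted p = 9.53e-05, limma). In resting iTregs 6 were higher and 3 lower than in resting Tconvs (32.8% and 30.8% of all genes). Of 6 ATG8 genes and partners linked to Gimap6, 2 fell and 0 rose on Tconv activation, and 0 fell and 1 rose on tTreg activation, shares near those of all genes (25.7% and 24.5%, 10.0% and 11.9%). In resting iTregs against resting Tconvs 1 of the 6 was higher and 2 were lower (32.8% and 30.8% of all genes). Gabarapl1 was the higher one, with 639, 592 and 561 normalized counts against 226, 208 and 192. Sqstm1, an autophagy receptor, was lower, with 3067, 3003 and 3054 against 6956, 7258 and 7274, and so was Map1lc3b, with 3513, 3539 and 3592 against 5741, 5939 and 6059. Of 5 genes of GSK3 and beta-catenin, linked to Gimap5, 4 fell on Tconv activation and 1 on tTreg activation (25.7% and 10.0% of all genes), and 3 were lower in resting iTregs than in resting Tconvs (30.8%). On restimulation of iTregs 3 quiescence genes and 1 BCL2 family gene were called by limma, each of them lower. In the ATG8 list and the GSK3 list 0 were called, where 12.8% of all genes were called in either direction. For lists of this size these counts are not far from that share.

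Of the 10 nearest named protein-coding genes beside the cluster, 5 on each side, 6 passed the filter on low values in the Tconv, tTreg and resting iTreg libraries. On Tconv activation 3 of them fell and 1 rose (25.7% and 24.5% of all genes), and in resting iTregs 3 were higher and 2 lower than in resting Tconvs (32.8% and 30.8% of all genes). Repin1, 48.15 kb from the cluster, was at 28, 19 and 11 normalized counts in resting Tconvs, 44, 39 and 45 in activated Tconvs and 363, 428 and 352 in resting iTregs, higher where most members were lower. Tmem176b, 63.0 kb from the cluster on the other side, was at 51, 75 and 69 in resting Tconvs, 36, 15 and 24 in activated Tconvs and 177, 170 and 168 in resting iTregs. Rarres2, counted among the lower genes in both comparisons, reached 12 normalized counts at most in resting Tconvs and 2 in activated Tconvs, near the floor of 3 reads, worth 2.12 to 5.45 normalized counts, so no fold is given.

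**Figure D5:**
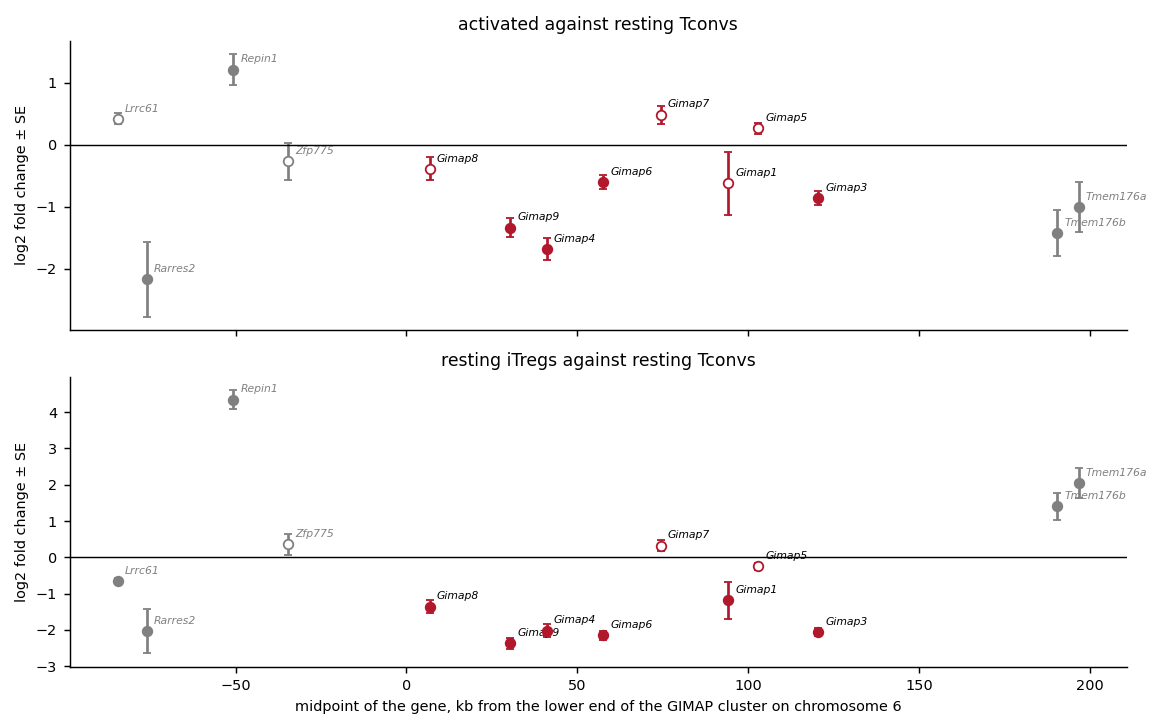
Points are log2 fold changes ± SE of the GIMAP genes (red) and of named neighbours that were tested (grey), by the midpoint of the gene in kb from the lower end of the cluster, filled where both thresholds were passed. Within the cluster Gimap7 and Gimap5 lie above 0 on Tconv activation (0.49 and 0.27), and Repin1 lies far above the members in resting iTregs. The point of Rarres2 rests on values near the floor and depends on the pseudocount of 1.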

How the data were processed

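RNA was taken from 24 libraries in 8 groups of 3 (the series lists 40 samples, and the others were not used here) and amplified by a modified SMART-seq2 protocol, which does not keep the strand. Per the study's methods and the submitters' processing notes, reads were trimmed with cutadapt 1.18, aligned with STAR 2.5.3 to GRCm38 and counted per gene with RSEM 1.3.0, and DESeq2 1.26 was used. The deposited signal values are the authors' gene counts divided by 1 size factor per library, called normalized counts here. Dividing by the step between low values gave whole reads within a tolerance of 0.001.

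Here log2(value + 1) was fitted with limma 3.58.1 (R 4.3.3) for genes that reached 10 normalized counts in 3 or more libraries. Tconv, tTreg and resting iTreg libraries (15) shared 1 fit over 11495 genes, the 12 iTreg libraries another over 11105, and pairs of groups and the iTreg response differences a fit of all 24 over 11725. Calls needed a Benjamini-Hochberg adjusted p under 0.05 and a log2 fold change beyond 0.5 in either direction. Fold changes on this scale understate those of low genes. Correlations and per-kb levels used the same values, with transcript lengths from GENCODE M21.

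The members and lists were chosen with earlier results of these data known. All 8 members are named, and other genes are named as the 5 most alike and 5 most opposite in profile, as listed pathway genes with the largest called change or a role beside a member, and as neighbours. Alternatives were library scaling, quantile normalization, pseudocounts of 0.1 and 5, other filters, adjusted p alone, a replicate block, edgeR 4.0.16 and DESeq2 1.42.0 on recovered reads, and leaving out each library. Replicates differed by 2.69 to 36.3 times the counting variance, so none was a copy. In simulated data, 92 of 100 genes changed 2-fold were called for Tconv activation and 100 of 100 for iTreg restimulation. Of 100 genes changed 1.5-fold, 46 and 67 were called, and of the unchanged genes 4 and 5. The changed genes were drawn from those above a minimum mean. All other genes had the same mean in every group, unlike in these data. Intervals and floors cover counting error only where they come from reads.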

Additional observations from a re-analysis of the deposited data

Results flagged for a closer look

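The responses to stimulation that differed between cell types are set out here, each as a log2 difference from limma. The Tconv response minus the tTreg response was 1.64 for Gimap7, 0.71 for Gimap5 and -0.69 for Gimap9. The iTreg response minus the Tconv response was 1.48 for Gimap4, 1.08 for Gimap9, 0.69 for Gimap6 and 0.55 for Gimap3. The iTreg response minus the tTreg response was 1.41 for Gimap7, 1.39 for Gimap4, 0.67 for Gimap5, 0.67 for Gimap8 and 0.63 for Gimap6. In these 3 comparisons 34.7%, 44.2% and 21.3% of all genes differed. The counts of 3 and 4 of 8 members in the first 2 are near those shares. The call for Gimap8 was lost in 7 of 12 fits that left out 1 library, that for Gimap9 between Tconvs and tTregs in 1 of 12, and that for Gimap3 between iTregs and Tconvs in 2 of 13. Stimulation lengths are not given, and cell type, donor age and culture cannot be told apart for iTregs. With 3 libraries per group, single libraries were not tested as outliers.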

How the results depend on the processing

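Of 309 counts of called GIMAP genes under alternatives, 307 stayed within 1.5 times the reported count. The exceptions were tTreg activation without activated tTreg replicate 1 (3 in place of 6) and iTreg restimulation by adjusted p alone (3 in place of 0). Leaving out each library in turn gave 4 to 5 called members for Tconv activation, 3 to 7 for tTreg activation and 0 for each comparison within iTregs. Among values of single members under other settings, 1283 of 1304 kept their side of the thresholds, 5 lost a call, 15 gained one and 1 turned sign with a call: Gimap3 between resting tTregs and Tconvs, at 0.54 under quantile normalization; the cause was not tested. A further 6 values that passed under neither setting turned sign. Of 896 values with a library left out, 27 lost a call, 13 gained one and 30 that passed in neither case turned sign. Deviations of same-numbered replicates from their group means had r of -0.42 to 0.24 over the Tconv, tTreg and resting iTreg libraries. Over iTregs r was -0.04 to 0.30 (mean 0.15, against -0.08 for different numbers), 17 of 18 were above 0 and 10 of 12 libraries correlated best with their own number, a hint from the data of shared deviation. In 0 of 6 pairs of iTreg groups were all 3 above 0.1, and no label ties the numbers to a culture or day, so they were not taken as pairs. With the number as a replicate block, resting iTregs against resting Tconvs gave 5 called members (Gimap1 adjusted p = 0.0536, limma), and the other counts of members were as reported. Over all genes, adjusted p alone raised the count for tTreg activation from 2517 to 3994 and for restimulation from 1425 to 3264, where a filter of 100 gave 878. For the ORAI inhibitor against restimulation the count went from 366 to 869 by adjusted p alone and 232 in 1 fit over 24 libraries, and for CsA from 324 to 945 and 187, or 213 with the filter of 100. Between inhibitors it went from 40 to 86, 10 and, without CsA replicate 1, 25. Against resting iTregs it went from 789 to 2045 and 479 for the ORAI inhibitor and from 1047 to 2705 and 654 for CsA, by adjusted p alone and with the filter. Under quantile normalization the share of higher calls for resting iTregs against activated Tconvs went from 55.1% to 42.5%.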
